A study of Mus musculus with 7 samples.

Results

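The genes described here are 10 components of the machinery by which cells sense bacteria and, through Tlr3, double-stranded RNA. They are the NOD receptors Nod1 and Nod2, the kinase Ripk2 and the adaptor Myd88. The others are the Toll-like receptors Tlr1, Tlr2, Tlr3, Tlr4 and Tlr5, and the co-receptor Cd14. All 10 were picked by name from the 52550 genes of the deposited count files, through each gene's Ensembl identifier, and matched to 1 identifier each. The question asked of them was which are detected at all in Paneth cells, secretory cells of the small-intestinal crypt bottom that store antimicrobial proteins in granules, at what level, and whether that level differed after gut injury.

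The 7 libraries measured polyadenylated RNA of Paneth cells sorted from C57BL/6J mice with the Lgr5-EGFP-IRES-CreERT2 allele, an allele that places a fluorescent protein and an inducible recombinase in the stem cell gene Lgr5 and that every mouse here carried. The 4 DSS libraries came from mice given 3% dextran sulfate sodium, which damages the lining of the gut, in drinking water for 7 days and killed 3 days after its removal. The 3 water libraries came from untreated controls. Cells were gated on CD24 and side scatter, with cells positive for TER119, CD31 or CD45 left out. By the labels, water 1 and 2 and DSS 1 were from mice aged 12 weeks, and water 3 and DSS 2, 3 and 4 from mice aged 10 weeks. By the labels, RNA of water 1 and 2 was isolated on day 14 of November and of water 3 on day 21, and RNA of DSS 1 on day 9, of DSS 2 and 3 on day 16 and of DSS 4 on day 24. No day holds both groups, so day of isolation and treatment cannot be told apart. The submitters' file names give lane 6 for the 3 water libraries and DSS 4, lane 8 for DSS 1 and 3, and no lane for DSS 2. Lane therefore also goes largely with treatment. Total counts ran from 23175708 to 32451653 per library. Nothing in the labels says plainly that the libraries come from different mice, and p-values therefore reflect variation among these samples, which may in part be technical.

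NOD1 and NOD2 are cytosolic receptors for fragments of peptidoglycan, the polymer of the bacterial cell wall, and both pass their signal to the kinase RIPK2. Toll-like receptors sit in the plasma membrane or in endosomes: TLR2 paired with TLR1 or TLR6 binds bacterial lipopeptides, TLR4 binds lipopolysaccharide with the help of CD14 and MD-2, TLR5 binds flagellin, and TLR3 binds double-stranded RNA. MYD88 is the adaptor of these Toll-like receptors other than TLR3, which signals through TRIF, and both arms lead to NF-kB. In the gut NOD2 is known for its expression in Paneth cells, and variants of the human gene are a risk factor for Crohn's disease.

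Of the 10 genes, 9 were detected, meaning at least 1 CPM (counts per 1000000 counts of a library, scaled between libraries with TMM factors) in each of the 7 libraries. The exception was Tlr4, with 3, 7 and 8 counts in the 3 water libraries and 6, 3, 15 and 5 in the 4 DSS libraries, in replicate order, which is 0.0884 to 0.515 CPM. A count of 3 was taken as the floor, and water 1 and DSS 2 lay at it. With a limit of 2 CPM in every library 7 genes remained, since Nod2 and Tlr1 fell below it, and with a limit of 0.5 CPM the number was 9. The 9 detected genes ranged from 1.55 CPM for Nod2 in DSS 3 to 20.04 CPM for Myd88 in water 2. Bulk RNA gives a level over all sorted cells, so fewer cells carrying a transcript and less transcript per cell cannot be told apart.

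**Figure D1:**
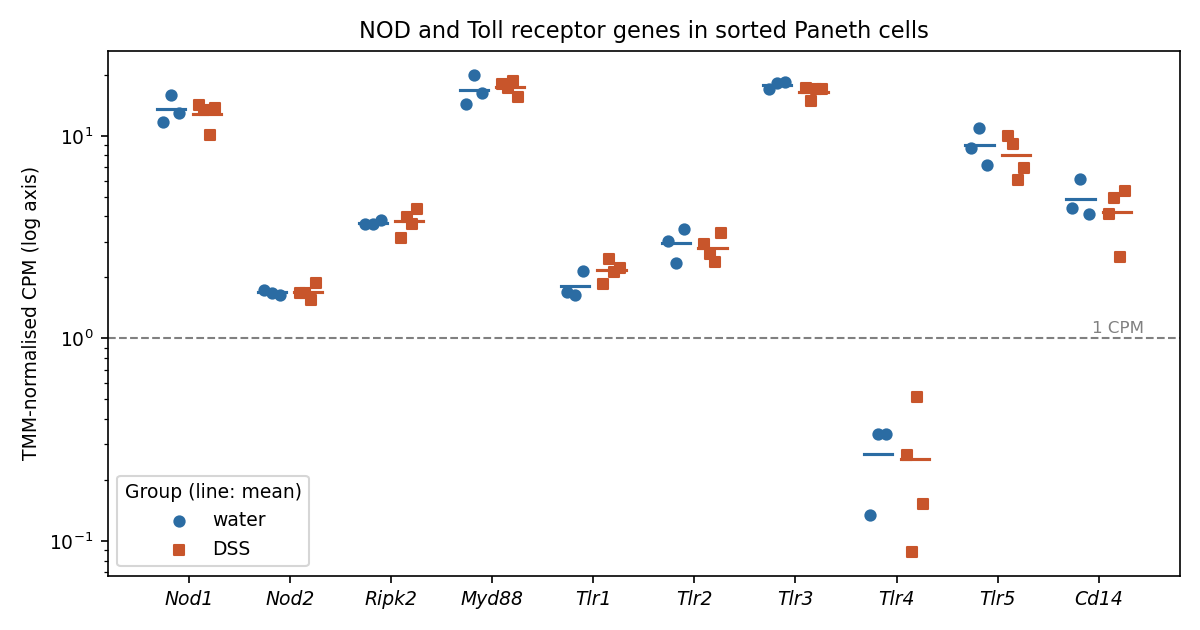
CPM of the 10 genes in each library on a log axis, with circles for the 3 water libraries, squares for the 4 DSS libraries, short lines for group means and a dashed line at 1 CPM. Tlr4 is the gene below the dashed line, at 0.0884 to 0.515 CPM, and the water and DSS points of every gene overlap.

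The position of each gene and the sequence it shares with others set how far its count can be read, because the counting used no strand information and kept primary alignments of reads with several matches. Coordinates are on GRCm38, the same assembly as mm10. Nod1 (ENSMUSG00000038058.14) lies on chromosome 6 at 54923949 to 54972612 on the minus strand, with 16 merged exon blocks. Nod2 (ENSMUSG00000055994.15) lies on chromosome 8 at 88647315 to 88688474, plus strand, with 14 blocks, and Tlr3 (ENSMUSG00000031639.12) on the same chromosome at 45395665 to 45411080, minus strand, with 8. Ripk2 (ENSMUSG00000041135.15, 12 blocks) and Tlr4 (ENSMUSG00000039005.13, 6 blocks) lie on chromosome 4 at 16122733 to 16163647, minus strand, and at 66827584 to 66930284, plus strand. Myd88 (ENSMUSG00000032508.8, 5 blocks) lies on chromosome 9 at 119335934 to 119341411, minus strand. Tlr1 (ENSMUSG00000044827.10, 5 blocks) lies on chromosome 5 at 64924679 to 64933563, minus strand, and Tlr2 (ENSMUSG00000027995.10, 3 blocks) on chromosome 3 at 83836272 to 83841767, minus strand. Tlr5 (ENSMUSG00000079164.8, 5 blocks) lies on chromosome 1 at 182954788 to 182976044, plus strand. The identifier of Cd14 is ENSMUSG00000051439.6.

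Tlr1 shared the most sequence with another gene: 454 of its 3332 distinct 50-base windows, or 13.6%, occur unchanged in transcripts of Tlr6, the neighbouring receptor that also pairs with TLR2. The longest identical run is 229 bases of coding exon in both genes. It is printed because a read that falls wholly inside it cannot be given to one gene or the other. The Tlr1 copy below spans chr5:64925507-64925795 and the Tlr6 copy chr5:64953798-64954086, both on the minus strand of GRCm38 and with 30 flanking bases at each end. Capitals mark the only 2 positions of the 289 at which the copies differ.
Tlr1: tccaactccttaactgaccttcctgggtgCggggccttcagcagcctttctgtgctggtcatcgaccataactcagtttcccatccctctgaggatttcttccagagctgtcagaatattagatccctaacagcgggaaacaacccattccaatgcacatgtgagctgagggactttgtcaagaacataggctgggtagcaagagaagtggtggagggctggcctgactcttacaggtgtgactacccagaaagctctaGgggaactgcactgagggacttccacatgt
Tlr6: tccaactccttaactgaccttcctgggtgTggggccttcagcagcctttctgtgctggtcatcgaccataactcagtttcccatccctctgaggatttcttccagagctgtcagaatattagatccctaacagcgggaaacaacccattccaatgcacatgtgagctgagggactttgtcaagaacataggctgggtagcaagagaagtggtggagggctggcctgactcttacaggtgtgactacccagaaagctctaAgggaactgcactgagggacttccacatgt

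Among the other genes, the overlaps were with genes on the opposite strand. Exons of Myd88 share 290 bases with Acaa1a, and 7.42% of the windows of Myd88 occur in both. Acaa1a had 1377 to 2176 counts per library, more than Myd88, so part of the Myd88 count cannot be assigned to a strand. Tlr3 shares 381 exon bases with Gm45542, which had 0 to 2 counts per library. Ripk2, Tlr2, Tlr5 and Cd14 shared 0 windows, and Nod1, Nod2 and Tlr4 shared 11, 13 and 12.

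To order the genes, counts were divided by gene length and scaled to the same sum in every library, a length-scaled level written TPM. In water, Myd88 stood highest with 6.44 ± 0.929 TPM (SD, n = 3), followed by Tlr3 with 3.39 ± 0.135, Cd14 with 3.06 ± 0.597 and Nod1 with 2.62 ± 0.337. Tlr5 followed with 1.84 ± 0.345 TPM and Ripk2 with 1.30 ± 0.0577. The low end held Tlr2 at 0.972 ± 0.207 TPM, Tlr1 at 0.539 ± 0.0891, Nod2 at 0.332 ± 0.0158 and Tlr4 at 0.0475 ± 0.0201. Tlr3, Cd14 and Nod1 overlapped their neighbours in the order within water, while the other neighbours had separate ranges there. Neighbours were also compared within each of the 7 libraries. Myd88 stood above Tlr3, Nod1 above Tlr5 and Ripk2 above Tlr2 in all 7. So did Tlr2 above Tlr1, Tlr1 above Nod2 and Nod2 above Tlr4. Tlr5 stood above Ripk2 in 5 of 7, Cd14 above Nod1 in 5 and Tlr3 above Cd14 in 4.

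Within single libraries the relative levels of the NOD arm varied little. The length-scaled level of Nod1 was 6.43 to 9.31 times that of Nod2, with a median of 7.80, and the level of Ripk2 was 3.33 to 4.23 times that of Nod2. Nod2, the peptidoglycan receptor best known from Paneth cells, had the lowest mean TPM of the 9 detected genes. Among the Toll-like receptors, the level of Tlr5 was 1.30 to 2.93 times that of Tlr2. Its ratio to Tlr4 ran from 13.7 to 120, a width that goes with the few counts of Tlr4. Among genes with a count, the TPM of Nod2 stood between percentiles 32.5 and 42.8 of its library and that of Myd88 between percentiles 70.1 and 78.3.

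**Figure D2:**
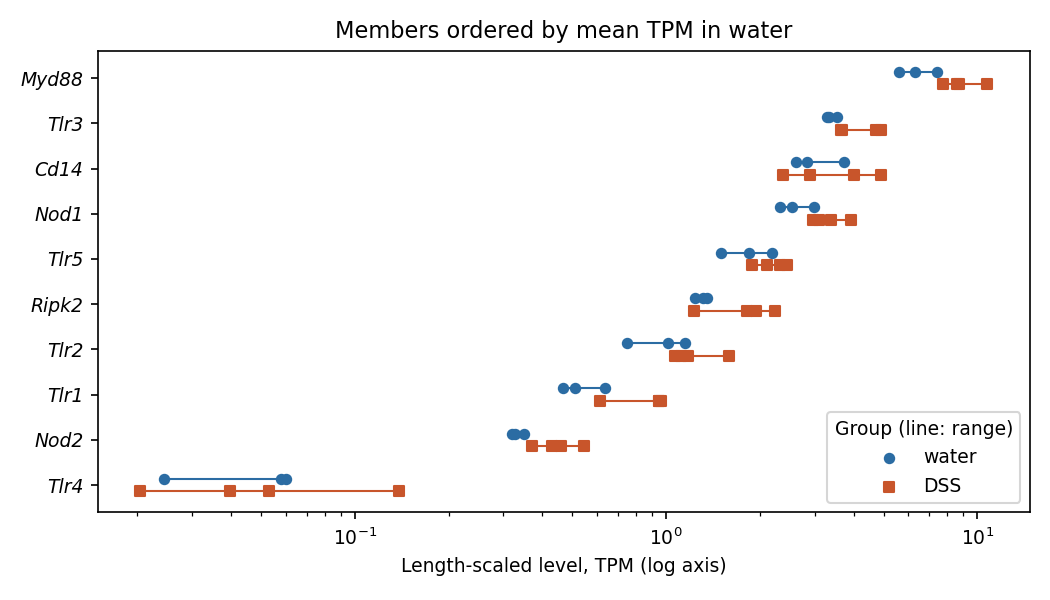
TPM of each gene in every library on a log axis, with genes ordered by their mean in water, circles for water, squares for DSS and lines for each group's range. Myd88 is at the top with 5.59 to 10.8 TPM and Tlr4 at the bottom with 0.0204 to 0.138 TPM. TPM are shares of a library in which Paneth cell marker genes took 374808 to 384063 TPM in water and 291361 to 360808 in DSS, so they are read here within a library and not between groups.

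For DSS against water, 0 of the 9 tested genes passed an adjusted p of 0.05 (edgeR's quasi-likelihood test, Benjamini-Hochberg over 17449 genes). The same fit called 0% of all genes. At an unadjusted p under 0.05 the fit had 15.7% of all genes and 0 of the 9. DESeq2 called 4.84% of the genes to which it gave an adjusted p, and 0 of the 7 of these genes that received one. In 7.4% of all tested genes every DSS library lay above every water library, and in 7.51% every DSS library lay below. For each of the 10 genes the groups overlapped. The median log2 change of the 9 was -0.07, beside -0.0015 over all genes tested, with 4 estimates above 0 and 5 below.

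Nod1, the receptor for peptidoglycan fragments that hold diaminopimelic acid, had 11.7, 15.9 and 12.9 CPM in the water libraries and 14.2, 13.4, 10.1 and 13.8 CPM in the DSS libraries, again in replicate order. DSS 3 was the lowest library and water 2 the highest, and the other 3 DSS libraries lay within the water range. The log2 change was -0.07 ± 0.15 (SE), with a 95% interval of 0.757-fold to 1.20-fold and an edgeR adjusted p of 0.866. Nod2, the receptor for muramyl dipeptide, had 1.74, 1.68 and 1.64 CPM in water and 1.68, 1.68, 1.55 and 1.88 CPM in DSS. All 7 libraries were close together, and their coefficient of variation of 6.08% was below the 14.9% that counting error alone gives at 35 to 62 counts. The log2 change of Nod2 was 0.01 ± 0.16, with an interval of 0.780-fold to 1.30-fold and an edgeR adjusted p of 0.986.

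Ripk2, the kinase through which both NOD receptors signal, had 3.66, 3.65 and 3.82 CPM in water and 3.13, 3.98, 3.68 and 4.34 CPM in DSS. The water libraries were close together, and the DSS libraries lay on both sides of them. Its log2 change was 0.03 ± 0.14, with an interval of 0.816-fold to 1.28-fold and an edgeR adjusted p of 0.942. Myd88 had 14.3, 20.04 and 16.2 CPM in water and 17.9, 17.3, 18.6 and 15.5 CPM in DSS. Every DSS library lay inside the water range. Its log2 change was 0.04 ± 0.12, with an interval of 0.850-fold to 1.24-fold and an edgeR adjusted p of 0.911.

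Tlr1 had 1.70, 1.63 and 2.14 CPM in water and 1.85, 2.47, 2.13 and 2.22 CPM in DSS. DSS 2 and DSS 4 lay above all water libraries, and DSS 1 and DSS 3 lay within the water range. With the log2 change furthest above 0 of the 9, 0.25 ± 0.18, it had an interval of 0.899-fold to 1.58-fold and an edgeR adjusted p of 0.542. Its estimate was above 0 under all 17 alternative settings, at 0.09 to 0.49. Those settings refit the same libraries or parts of them, so the shared sign is not independent support. The 0.49 came with scaling by library totals, which moved the median of all genes to 0.23, and relative to that median the change was 0.25. Reads shared with Tlr6 enter this count as described, and Tlr6 itself had 18 to 38 counts per library and a log2 change of -0.06 ± 0.26.

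Tlr2, the common partner of TLR1 and TLR6, had 3.03, 2.35 and 3.48 CPM in water and 2.91, 2.62, 2.37 and 3.31 CPM in DSS. Every DSS library lay within the water range, and the log2 change was -0.08 ± 0.19 with an edgeR adjusted p of 0.880. Tlr3 had 17.0, 18.2 and 18.5 CPM in water and 17.1, 14.8, 17.1 and 16.9 CPM in DSS. DSS 2 was the lowest library, DSS 4 lay just below the lowest water library, and the other DSS libraries lay within the water range. Tlr3 had the smallest error of the 9, with a log2 change of -0.11 ± 0.08, an interval of 0.812-fold to 1.05-fold and an edgeR adjusted p of 0.549.

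Tlr5, the flagellin receptor, had 8.74, 11.0 and 7.17 CPM in water and 10.0, 9.13, 6.08 and 6.95 CPM in DSS. Its libraries spread over a factor of 1.80, with DSS 3 and DSS 4 below the lowest water library. The coefficient of variation over the 7 libraries was 21.0%, beside 6.75% from counting error, and the log2 change was -0.16 ± 0.20 with an edgeR adjusted p of 0.761. Cd14, which hands lipopolysaccharide to TLR4, had 4.42, 6.15 and 4.11 CPM in water and 4.10, 4.92, 2.51 and 5.31 CPM in DSS. It spread most of the 9 detected genes, over a factor of 2.45 with DSS 3 lowest and water 2 highest, and its coefficient of variation was 25.4% beside 9.17% from counting error. Its log2 change was -0.21 ± 0.26, with an interval of 0.579-fold to 1.29-fold and an edgeR adjusted p of 0.743.

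Tlr4 did not pass the low-count filter. In the edgeR fit without that filter its log2 change was -0.10 ± 0.58 with an unadjusted p of 0.868. It had 47 counts over the 7 libraries, and counting error alone gives a coefficient of variation of 38.6% at that number. Ly96, which encodes its partner MD-2, had 3.08 to 4.54 TPM beside 0.0204 to 0.138 TPM for Tlr4. Lbp, the lipopolysaccharide-binding protein, had 3 to 27 counts per library.

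**Figure D3:**
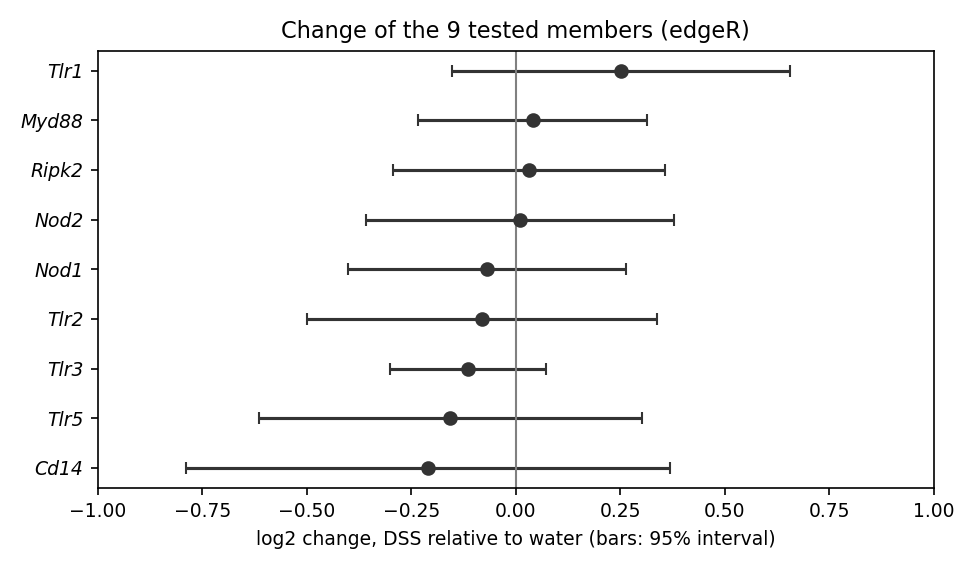
Log2 change of the 9 tested genes, DSS relative to water, with bars for the 95% interval from the edgeR fit. All 9 intervals contain 0. They are narrowest for Tlr3 and widest for Cd14.

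The signs of these small estimates depended on scaling and on single libraries. With library totals in place of TMM factors, the estimates of Nod1, Tlr2, Tlr3, Tlr5 and Cd14 moved above 0. Relative to the all-gene median of 0.23 in that fit they were -0.07, -0.08, -0.11, -0.17 and -0.21. DSS 2 and DSS 3, the libraries isolated on day 16, stood apart in summed tuft cell markers, with 720 and 708 CPM beside 370 to 409 CPM in the other 5 libraries. Without both of them, an alternative added after seeing the data, 0 of the 9 genes passed, and the estimates ran from -0.08 for Tlr5 to 0.16 for Tlr1. In CPM with TMM factors, DSS 3 was the lowest of the 7 libraries for 4 of the 10 genes and water 2 the highest for 4. DSS 3 also had the highest TMM factor, 1.14, and water 2 the lowest, 0.899. By library totals, of those genes Cd14 alone was still lowest in DSS 3 and Tlr5 alone still highest in water 2. Nod1, for example, was then lowest in water 1, at 10.7 CPM, and highest in DSS 4, at 15.4 CPM. With TMM factors Cd14 had its highest value in water 2 and its lowest in DSS 3. Its estimate was -0.016 without water 2 and -0.027 without DSS 3.

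Markers of blood-derived cells, many of which carry these receptors, were low in all libraries beside the Paneth cell markers, but not beside the least abundant of the 10 genes. The summed level of 14 macrophage and monocyte markers was 2.19 to 5.09 CPM in water and 3.89 to 4.43 CPM in DSS, with Tyrobp at 0 counts in all libraries, Csf1r at 0 to 4 and Adgre1 at 0 to 2. Itgam had 17 to 60 counts, Cd68 had 14 to 48, and C1qa had 0 to 38 with its highest level, 1.83 CPM, in water 2. With TMM factors the sum was also highest in water 2, at 5.09 CPM, the library in which Nod1, Myd88, Tlr5 and Cd14 were highest. Next highest was DSS 3, at 4.43 CPM, the library in which Nod1, Tlr5 and Cd14 were lowest and Myd88 had 18.6 CPM. Which library was highest or lowest for these genes depended on the scaling, as given above. Per length, Cd14 had 2.38 to 4.91 TPM and the 14 markers together 0.956 to 3.52 TPM. Tlr2 had 0.747 to 1.59 TPM, Tlr1 had 0.467 to 0.962 and Nod2 had 0.321 to 0.545. The part of macrophages or monocytes in the levels of the 10 genes was not tested. Neutrophil markers summed to 0.446 CPM or less, with S100a8, Csf3r and Ly6g at 0 throughout, and lymphocyte markers to 0.982 CPM or less. Pan-leukocyte markers summed to 8.26 to 13.7 CPM in water and 8.17 to 17.2 CPM in DSS, nearly all of it Ptprc, the gene of the gated antigen CD45, with 7.86 to 16.8 CPM, while Cd53 was at 0 and Laptm5 at 0 to 2 counts. Ptprc was highest in DSS 2 and DSS 3, the libraries with the highest tuft cell markers. The Paneth cell markers, such as Lyz1, Mmp7 and the alpha-defensins, were present as the label has it and summed to 257275 to 274811 CPM in water and 126998 to 219090 CPM in DSS. Goblet cell markers at 4676 to 8787 CPM and stem cell markers at 3889 to 4835 CPM were present in all libraries. So were enterocyte markers at 573 to 682 CPM and tuft cell markers at 370 to 720 CPM. The part of these cell types in the levels of the 10 genes was not tested. Enteroendocrine markers summed to 38.7 CPM in water 1, 1169 in water 2 and 2151 in water 3, beside 354 to 973 CPM in DSS, and their part was not tested either. Without water 1, 0 of the 9 genes passed, and the estimates ran from -0.28 for Cd14 to 0.20 for Tlr1.

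**Figure D4:**
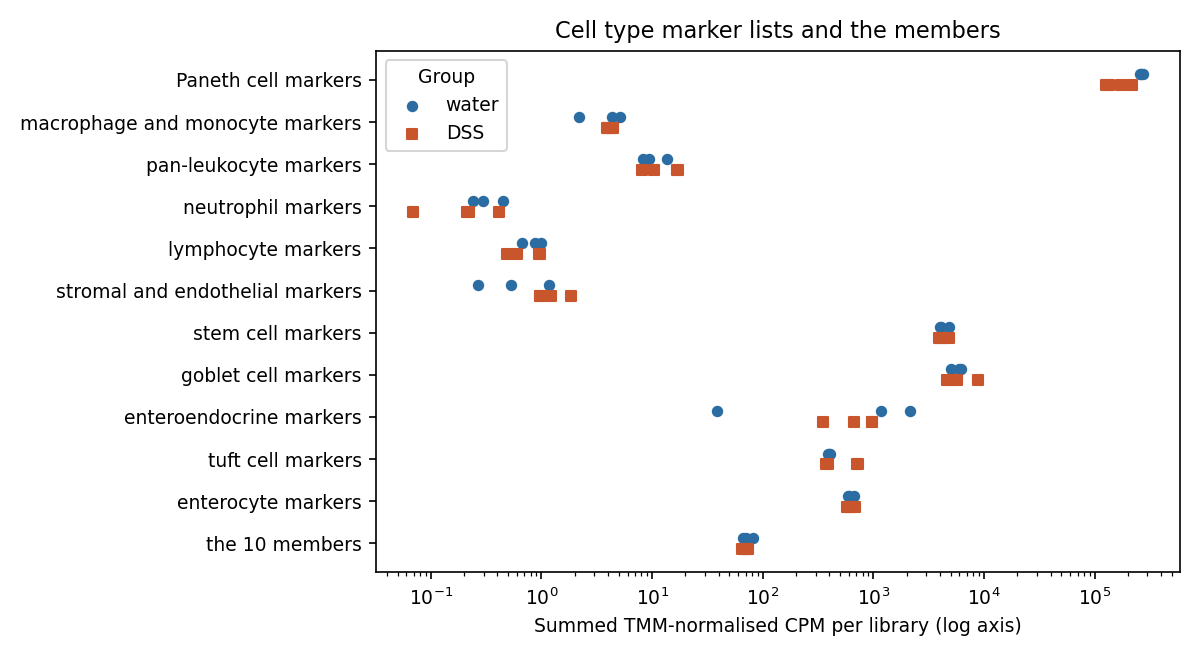
Summed CPM of each cell type marker list and of the 10 genes in every library, on a log axis, with circles for water and squares for DSS. Paneth cell markers lie far to the right and blood cell markers far to the left, and the 10 genes sum to 64.6 to 80.8 CPM.

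The remaining Toll-like receptors were at or near the limit of detection. Tlr6 had 0.618 to 1.19 CPM, Tlr9 had 0 to 11 counts, Tlr12 had 0 to 5, Tlr11 had 0 to 2 and Tlr7 had 0 to 1. Tlr8 and Tlr13 were at 0 in all 7 libraries. The chaperones that Toll-like receptors need for folding and transport were detected well above them. Unc93b1, which carries receptors to endosomes, had 14.2 to 22.2 TPM and 44.3 ± 4.26 CPM (SD, n = 3) in water and 44.2 ± 3.18 CPM (SD, n = 4) in DSS. Hsp90b1, the endoplasmic reticulum chaperone gp96, had 793 ± 17.2 CPM in water and 633 ± 99.6 in DSS. All 4 DSS libraries of Hsp90b1 lay below the water libraries, as for 7.51% of all genes. Its log2 change was -0.32 ± 0.12, with an edgeR adjusted p of 0.251.

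Across 9 lists of neighbouring pathway genes, 0 of 101 distinct tested genes passed an adjusted p of 0.05 in edgeR. At an unadjusted p under 0.05 there were 18, or 17.8% beside the 15.7% of all genes, with 8 higher and 10 lower in DSS. The median log2 change was -0.0077, beside -0.0015 for all genes. In 5 of the 101 every DSS library was above every water library, and in 10 every DSS library was below, where the shares of all genes were 7.4% and 7.51%.

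Of 15 tested Toll adaptors and kinases, 1 had an unadjusted p under 0.05 with a higher level and 1 with a lower one. Over all genes the share in either direction was 15.7%. The median log2 change of the list was -0.06. Ticam1, which encodes TRIF, the adaptor of TLR3 and TLR4, had 18.2, 16.5 and 18.2 CPM in water and 19.5, 24.2, 19.7 and 20.2 CPM in DSS. All DSS libraries of Ticam1 lay above the water libraries, with a log2 change of 0.25 ± 0.10 that did not pass (edgeR adjusted p of 0.266). The kinase Irak1 was the most abundant of the list per length, at 126 ± 3.81 CPM (SD, n = 3) in water and 114 ± 9.39 CPM (SD, n = 4) in DSS, with an edgeR adjusted p of 0.388.

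Of 14 tested inhibitors of these pathways, Tnfaip3 and Irak3 had an unadjusted p under 0.05, beside 15.7% of all genes. Tnfaip3, the ubiquitin-editing enzyme A20 that dampens NF-kB, had 9.37, 10.9 and 10.3 CPM in water and 11.2, 12.9, 12.2 and 12.4 CPM in DSS, so that the groups were separate. In 7.4% of all genes every DSS library likewise lay above every water library. The log2 change of Tnfaip3 was 0.26 ± 0.10 (edgeR adjusted p of 0.251). Irak3, a kinase-dead brake on Toll signalling, had 23.6, 24.2 and 19.6 CPM in water and 17.5, 20.4, 16.5 and 19.4 CPM in DSS, with a log2 change of -0.28 ± 0.10 (edgeR adjusted p of 0.246). Water 3 lay within the DSS range for Irak3.

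Of 15 tested NOD partners and ligand transporters, Traf4 and Arhgef2 were higher and Birc2 lower at an unadjusted p under 0.05. Over all genes the share in either direction was 15.7%. Traf4, which binds NOD2, had a log2 change of 0.33 ± 0.12, and Arhgef2, which acts with NOD1 at the membrane, one of 0.31 ± 0.11 (edgeR adjusted p of 0.231 and 0.234). Birc2, a ubiquitin ligase that acts on RIPK2, had one of -0.16 ± 0.06 (edgeR adjusted p of 0.284). Xiap, the ligase that NOD2 signalling depends on, had 78.8 ± 7.36 CPM (SD, n = 3) in water and 75.0 ± 4.16 CPM (SD, n = 4) in DSS, and its mean in water was 8.23 TPM beside 1.30 TPM for Ripk2. Traf4 was highest in DSS 2 and DSS 3, at 55.9 and 53.5 CPM, and without these 2 libraries its log2 change was 0.18 ± 0.12 and that of Birc2 -0.079 ± 0.062. Of the 18 tested genes of TAK1, IKK and NF-kB, Relb was higher at 0.32 ± 0.14 and Chuk, the kinase IKK-alpha, lower at -0.16 ± 0.06 on the log2 scale, and neither passed (edgeR adjusted p of 0.306 and 0.253).

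Several classic inducible products of Toll and NOD signalling were nearly without reads in both groups. Cxcl1 had 0 to 3 counts per library, Cxcl2 and Il1b had 0 to 1 and Il6 had 0 to 2, while Cxcl5 and Ccl2 were at 0 in all libraries. Tnf had 5 to 16 counts, with a log2 change of -0.52 ± 0.40. Of the 22 genes listed as inducible targets in epithelium, 11 were tested and 0 had an unadjusted p under 0.05, beside 15.7% of all genes. The cytokine gene Il18, with 18 to 68 counts, had a log2 change of 0.61 ± 0.28 (edgeR adjusted p of 0.345). Sod2, the mitochondrial superoxide dismutase, had one of 0.13 ± 0.06 (edgeR adjusted p of 0.372). The chemokine gene Ccl20, with 5 to 25 counts, lay lower in every DSS library than in every water library, as did 7.51% of all genes. Its log2 change was -0.77 ± 0.40 (edgeR adjusted p of 0.395). Pigr, the transporter of secretory antibodies, had 2053 ± 98.8 CPM (SD, n = 3) in water and 2025 ± 112 CPM (SD, n = 4) in DSS, and Reg3g, a lectin that kills Gram-positive bacteria, had 926 ± 464 and 1129 ± 1028 CPM.

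Several inflammasome and other cytosolic sensors stood higher per length than the NOD receptors. Nlrp6 had 30.1 to 50.5 TPM, Nlrc4 had 29.3 to 36.2 TPM and Naip6 had 17.7 to 34.5 TPM, beside 2.32 to 3.93 TPM for Nod1 and 0.321 to 0.545 TPM for Nod2. Of the 16 tested, Nlrp1b, Naip1 and Naip6 were higher and Nlrc4 lower at an unadjusted p under 0.05. Over all genes the share in either direction was 15.7%. Nlrc4, which with NAIP proteins forms the inflammasome for flagellin, had a log2 change of -0.20 ± 0.08, and Naip6, one of the flagellin receptors, one of 0.19 ± 0.08 (edgeR adjusted p of 0.276 and 0.301). The Naip genes resemble one another closely, and since reads may be divided among them, each single value is uncertain.

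Proteins that bind or cut peptidoglycan, the source of NOD ligands, had the lowest median of the pathway lists, -0.96 over 3 tested genes. That list was written with earlier results of these data known. The Paneth cell markers, which also hold Lyz1, had a median log2 change of -0.47 over 11 tested genes. Lyz2, a lysozyme, had 9957, 9956 and 10247 CPM in water and 7091, 5266, 3757 and 4153 CPM in DSS, with a log2 change of -0.99 ± 0.21 (edgeR adjusted p of 0.138). Lyz1, its close copy, with which it may exchange reads in the counting, had one of -0.96 ± 0.27 (edgeR adjusted p of 0.174). Pglyrp1, a peptidoglycan recognition protein, had one of -0.45 ± 0.16 (edgeR adjusted p of 0.234). DSS libraries lay below the water libraries for all 3, for 4 of the 11 Paneth cell markers and for 7.51% of all genes. The Paneth cell marker sum, which holds Lyz1, was lower in the same libraries. A difference between the 3 genes and other Paneth cell genes was not tested. DESeq2 called Lyz1 and Lyz2 and none of the other pathway genes.

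**Figure D5:**
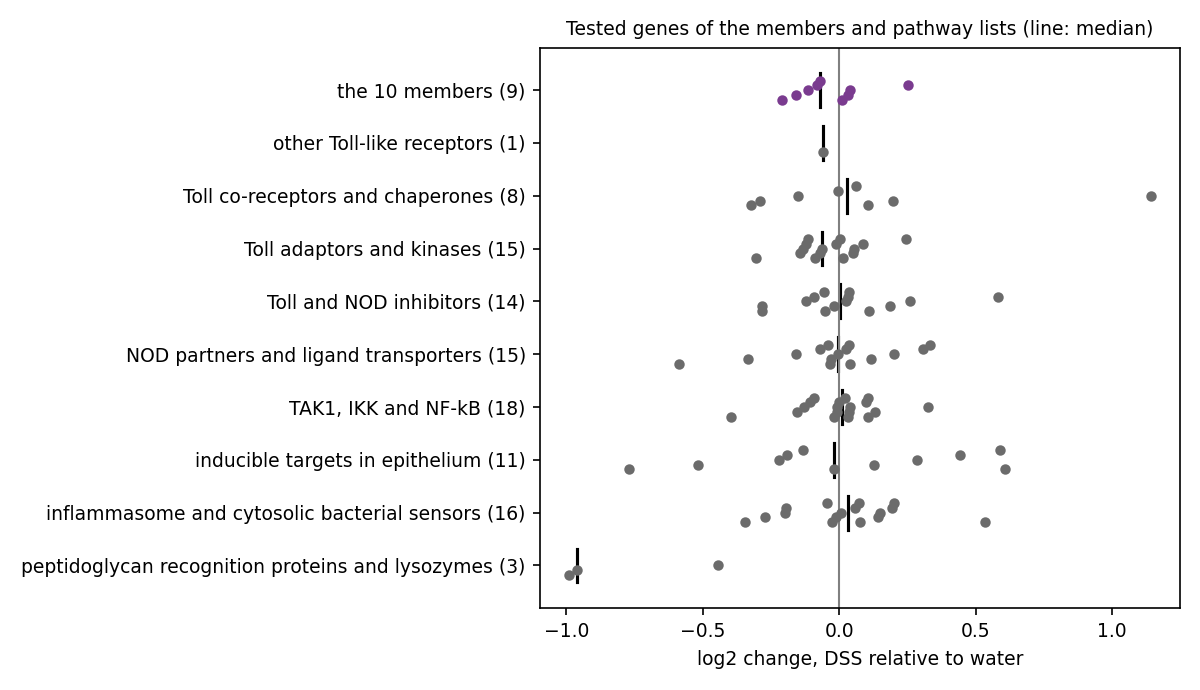
Log2 change, DSS relative to water, of each tested gene of the 10 sensing genes (purple) and of the pathway lists (grey), with the number tested in brackets and a black line at each median. The 9 tested sensing genes lie between -0.21 and 0.25, and the 3 peptidoglycan recognition and lysozyme genes lie furthest to the left as a list.

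The genes whose levels over the 7 libraries were most like those of Myd88 were Chrnb4, Bcl3 and Mbd6, with Pearson r of 0.973, 0.973 and 0.960 on log2 CPM among 9117 genes searched. For Tlr3 they were Srsf5, Jmjd1c and Atf2, with r of 0.958, 0.949 and 0.942. Bcl3 is an atypical member of the IkB family and stands in the NF-kB list. These are descriptions over 7 libraries that share their 2-group layout and scaling, picked as the highest of many, and no test was made of them.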

How the data were processed

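Counts per gene were deposited by the authors, with featureCounts 1.5.3 and GENCODE release 15 per the file headers. Among the tools, mm10 as build, STAR 2.5.3a, DESeq2 and a featureCounts 1.5.2 appear in the submitters' processing notes. Only primary alignments overlapping an exon by a fraction of at least 0.8 were counted, without regard to strand, per the file headers. The gene length in the deposited files, an other kind of value, was used for TPM. Symbols came from GENCODE release 21, matched for 52403 of 52550 identifiers.

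The 7 libraries were grouped by labelled treatment, 3 water and 4 DSS. Replicates were numbered in accession order and pair nothing. edgeR 4.0.16 in R 4.3.3 tested DSS against water over the 17449 genes that passed filterByExpr, with TMM factors of 0.899 to 0.922 in water and 0.980 to 1.14 in DSS, no covariate and Benjamini-Hochberg adjustment at 0.05. Estimates are log2 changes with the standard error from the fit. DESeq2 1.42.0 and limma 3.58.1 were alternatives. The fit was also run on simulated counts with known changes, drawn without any structure of day, lane or cell types. Its outcome there is not reported and nothing here rests on it. At these depths the floor of 3 counts is 0.0924 to 0.129 CPM by library total, without TMM factors. Counting errors given here cover counting only.

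The 10 genes, the lists and the rule for naming genes were chosen with earlier results of these data known. The rule named all 10 genes, from each pathway list the up to 4 tested genes with the smallest p and the up to 3 with the highest TPM, and for the 2 genes with the highest TPM the 3 genes most alike. Others described here, among them Ly96, Xiap, Ptprc and Slc15a2, were chosen after their values were seen. Some genes that the rule named are not described, among them Cnpy3, Peli2, Tollip and Casp1, and were left out without a stated rule. Cnpy3 and Peli2 were lower in DSS at an unadjusted edgeR p under 0.05. Their log2 changes were -0.15 ± 0.07 and -0.31 ± 0.13 (edgeR adjusted p of 0.313 and 0.317). Of 222 list entries, 221 matched an identifier. Shared sequence was counted over 50-base windows of GENCODE release 21 transcripts.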

Additional observations from a re-analysis of the deposited data

Results flagged for a closer look

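A single value among the 21 series checked stood apart from the rest of its group. Tlr3 in DSS 2 had 14.8 CPM, while the other 3 DSS libraries lay at 16.9 to 17.1 CPM. The gap to its nearest neighbour was 0.910 of the group's whole range. That is above the 95% limit of the Dixon test for 4 samples. Chance flags about 1 in 20 such groups. The distance of DSS 2 depended on the scaling. In CPM by library total the DSS libraries had 16.8, 15.5, 19.5 and 19.0 in replicate order, a gap of 0.312 of the range, which is under the limit. In TPM they had 3.65, 3.66, 4.90 and 4.72, and DSS 1 was the lowest.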

How the results depend on the processing

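Under 17 alternatives, 0 of the 9 tested genes passed the threshold in any, and 129 of 153 estimates kept their sign; the lowest adjusted p was 0.117, for Tlr1 with library totals. With library totals the estimates turned to 0.16 (Nod1), 0.15 (Tlr2), 0.12 (Tlr3), 0.067 (Tlr5) and 0.022 (Cd14), a shift shared by the all-gene median of 0.23. With lane 6 libraries only, which sets the 3 water libraries against DSS 4 alone, they turned to 0.021 (Nod1), -0.13 (Myd88), 0.15 (Tlr2) and 0.11 (Cd14). Age as a covariate gave -0.065 (Ripk2) and 0.034 (Tlr5), and 10-week mice only, which sets water 3 alone against DSS 2, 3 and 4, gave 0.046 for Tlr5 and 0.054 for Cd14. In both fits the lone library is assumed to vary like those of the other group, also for the calls with lane 6 only. Without DSS 2 and DSS 3 together, Nod1 was at 0.051, Myd88 at -0.012 and Tlr2 at 0.073. Leaving out each replicate gave -0.16 to 0.061 for Nod1, -0.045 to 0.052 for Nod2, -0.041 to 0.11 for Ripk2, -0.066 to 0.18 for Myd88, -0.22 to 0.056 for Tlr2, -0.29 to 0.012 for Tlr5 and -0.34 to -0.016 for Cd14. The causes were not tested.

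Pathway genes called rose from 0 to 13 with library totals (2107 higher and 28 lower over all genes), and to 2, Lyz1 and Lyz2, with no low-count filter, lane 6 only, without DSS 1 and with DESeq2; leaving out single replicates gave 0 to 2. Over all genes, edgeR's 0 became 240 higher and 201 lower with no filter, 168 and 135 without DSS 1, 9 and 0 without DSS 4, 3 and 6 with lane 6 only, and 347 and 297 with DESeq2. Detection held at 7 to 9 genes over the limits of 0.5, 1 and 2 CPM. Without the 20 most abundant genes TPM rose 3.01 to 3.13 times and the 10 ranks were the same. The labels state no pairing of libraries, so no paired analysis was made. Depth limits Tlr4 and, less so, Nod2 and Tlr1.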

Other observations

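Slc15a2, a peptide transporter that can carry muramyl dipeptide, a NOD2 ligand, was the most uneven of the pathway genes tested, and was picked out after its values were seen. It had 378, 525 and 321 counts in water 1 to 3 and 261, 0, 0 and 1239 counts in DSS 1 to 4. The 2 libraries at 0, DSS 2 and DSS 3, lay below the chosen floor of 3 counts, which is 0.0924 and 0.118 CPM there by library total. The other 5 had 11.5 to 37.6 CPM with TMM factors. They are the same 2 libraries in which tuft cell markers and Ptprc were highest. They are the only ones isolated on day 16 of November, and their titles share a number with that of water 3, in which Slc15a2 was at 13.5 CPM. The log2 change of Slc15a2 was -0.59 ± 1.27 over all libraries and 0.42 ± 0.46 without DSS 2 and DSS 3 (edgeR adjusted p of 0.870 and 0.853).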
